A study of Mus musculus with 20 samples.

Results

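The genes described here are 34 mouse genes of antigen presentation by major histocompatibility complex (MHC) class I and class II. They were chosen by name: their symbols were matched to the NCBI gene numbers in the deposited tables, which hold 19311 genes in one set of libraries and 24454 in the other, and all 34 were found in both. They comprise 2 classical and 7 non-classical class I heavy chains, the light chain B2m, 8 genes of peptide transport, trimming and loading, 5 of the immunoproteasome and its activator, 5 transactivator and RFX genes, and 6 genes of the class II pathway.

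The study compared cultured mouse breast cancer cells of the MMTV-PyMT model, in which the mammary tumour virus promoter drives the polyoma middle T antigen. RNA was sequenced from 10 groups of 2 libraries each, drawn per the labels' protocols from 2 independent experiments. In the first set, the tumour cell line Py2T, cultured long term with TGF-beta 1 (2 ng/ml, over 10 days; Py2T LT), was compared with 3 stable mesenchymal clones named M1, M2 and M3. In the second set, all 6 groups were clone M3, so that every one of these values comes from a single clone: lines with a control shRNA (shControl), an shRNA against Tet2 (shTet2) or an shRNA against Mbd3 (shMbd3), each without treatment and after 72 hours in 2 µM CI994. Tet2 oxidises methylated cytosine in DNA, Mbd3 is a subunit of the NuRD histone deacetylase complex, and CI994 is an inhibitor of histone deacetylases. The labels give no TGF-beta treatment for the clones, so clonal origin and TGF-beta cannot be told apart in the first set, and they do not say how many shRNAs were used per target.

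Class I molecules carry peptides of the cell's own proteins to its surface, where CD8 T cells read them. The proteasome cuts the peptides, the Tap1/Tap2 transporter moves them into the endoplasmic reticulum, Erap1 trims them, and the loading complex places them on a heavy chain paired with B2m. Class II molecules display peptides from endosomes to CD4 T cells and are mostly made by professional antigen-presenting cells. Nlrc5 is the transactivator of class I genes and Ciita that of class II genes. Both act through RFX, CREB-family and NF-Y proteins bound at the promoters, and interferon-gamma and NF-kB are the best known inducers of the pathway.

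The first set held 8 libraries in RPKM (reads scaled to gene length and library depth), for which the depth is unknown. The second set held 12 libraries in CPM (reads scaled to library depth), from which 16086082 to 24977595 whole reads per library were recovered. At that depth a gene with 0 reads could still have had up to 0.120 to 0.186 CPM. Of the 15 immune cell markers, Cd68, Lyz2 and Csf1r were high enough in the CPM libraries to be tested, Adgre1 and Tyrobp were at 0 in all 12, and Ptprc was at 0.378 CPM or lower. Cd68 and Lyz2 rose with CI994 in all 3 M3 lines and Csf1r in shMbd3 cells. The mesenchymal marker Vim was at 358 to 1397 RPKM and the epithelial keratin Krt18 at 780 to 1427 RPKM in the first set, while the basal keratin Krt5 was at 0 there. The library labelled M3_shControl replicate 1 stood apart. Its Mbd3 was 5.40 CPM against 66.5 in replicate 2, lower than the 22.1 and 27.7 CPM of the untreated shMbd3 libraries. Its Cdh1 (357 reads) and Vim (31935) lay near those of replicate 2 (537 and 31821). The untreated shMbd3 libraries had 4066 and 4531 reads of Cdh1 and 9477 and 9165 of Vim. Not every marker lay so: Krt8 and Krt18, at 7071 and 12697 reads, were below replicate 2 and both shMbd3 libraries. Whether the label is right was not tested. Its ratio to replicate 2 changed by -1.77 on the log2 scale from the genes of lowest to those of highest GC content, whereas this change was between -0.386 and 0.0141 in the other 5 CPM pairs. The transcripts of H2-K1 and H2-D1 lie at the 75.0th and 82.4th percentile of GC content and those of B2m and Erap1 at the 9.75th and 10.9th. The results that rest on this library are therefore given with and without it, save the summed levels of gene lists and the tests of Tet2 and Mbd3. Tet2 was 15.1 and 13.8 CPM in the untreated shControl libraries and 8.41 and 7.97 in the untreated shTet2 libraries. With CI994 it was 8.13 and 11.4 CPM in shControl, below both untreated libraries, and 6.30 and 7.42 in shTet2. The shTet2 difference of Tet2 passed untreated and not with CI994 (limma, Benjamini-Hochberg adjusted p = 0.0176 and 0.127). The shMbd3 difference of Mbd3 passed in neither (limma, adjusted p = 0.798 and 0.198).

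Promoter sequence was at hand for 26 of the 34 genes. The stretches directly before the start site are shown for the 2 classical heavy chains and H2-T23, which rose in all 3 CI994 comparisons. Also shown are B2m, which passed in none of them in the main fit, Tap1, and Erap1, which fell in all 3. They are RefSeq sequence of GRCm38.p6, 5′ to 3′ on each gene's strand. Capitals mark matches on either strand to an interferon-response core (GAAANNGAA), the class I kB site (GGGGATTCC), the CRE core of the X2 box (TGACG) and the Y box bound by NF-Y (GATTGG).
H2-K1: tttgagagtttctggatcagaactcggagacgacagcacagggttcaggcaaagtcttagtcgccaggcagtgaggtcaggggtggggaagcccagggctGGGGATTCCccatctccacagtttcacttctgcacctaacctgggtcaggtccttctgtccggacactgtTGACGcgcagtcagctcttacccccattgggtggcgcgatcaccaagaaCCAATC
H2-D1: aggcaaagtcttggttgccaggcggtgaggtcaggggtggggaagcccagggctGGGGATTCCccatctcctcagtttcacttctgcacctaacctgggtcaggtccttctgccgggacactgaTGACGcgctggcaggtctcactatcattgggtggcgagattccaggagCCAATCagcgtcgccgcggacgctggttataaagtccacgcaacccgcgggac
H2-T23: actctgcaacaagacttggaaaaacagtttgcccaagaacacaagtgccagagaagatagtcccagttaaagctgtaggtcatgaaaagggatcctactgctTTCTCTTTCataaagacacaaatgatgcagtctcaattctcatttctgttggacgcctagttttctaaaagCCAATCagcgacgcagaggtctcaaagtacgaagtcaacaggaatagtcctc
B2m: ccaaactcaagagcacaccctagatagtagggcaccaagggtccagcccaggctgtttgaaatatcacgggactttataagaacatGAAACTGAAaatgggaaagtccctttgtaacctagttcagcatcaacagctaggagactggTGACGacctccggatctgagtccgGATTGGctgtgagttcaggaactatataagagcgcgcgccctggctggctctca
Tap1: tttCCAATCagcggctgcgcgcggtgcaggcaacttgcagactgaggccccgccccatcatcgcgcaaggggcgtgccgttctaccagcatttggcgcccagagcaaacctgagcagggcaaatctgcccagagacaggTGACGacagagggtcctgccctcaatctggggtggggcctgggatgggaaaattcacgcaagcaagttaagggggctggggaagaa
Erap1: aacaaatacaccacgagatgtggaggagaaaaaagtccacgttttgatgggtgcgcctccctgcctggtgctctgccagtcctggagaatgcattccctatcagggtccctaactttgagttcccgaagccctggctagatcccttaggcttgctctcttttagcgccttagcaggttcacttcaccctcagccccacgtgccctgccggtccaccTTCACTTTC
These stretches lie at chr17:34000334-34000558 (minus strand), chr17:35262869-35263093 (plus), chr17:36032702-36032926 (minus), chr2:122147462-122147686 (plus), chr17:34187331-34187555 (plus) and chr13:74639628-74639852 (plus). In windows of 250 bases before to 50 after the start, the kB site was found in 4 of the 26 genes (H2-K1, H2-D1, H2-Q6 and H2-Q7) and in 0.296% of 27025 genes with a window. The Y box was found in 18 of 26 and in 18.2% of all genes, the CRE core in 13 of 26 and in 23.1%, and the interferon core in 5 of 26 and in 9.76%. A further motif that was searched was found in 2 of 26 and in 9.55% of all genes and is not described here. These motifs were searched because they are textbook elements of MHC promoters. From the kB site to the CRE core the distance was 70 bases in H2-K1 and H2-D1 and 69 in H2-Q7, and the GATTGG match lay 49, 48 and 48 bases further on. In these genes an ATTGG with another letter before it lies between the CRE core and that match, in lower case above for H2-K1 and H2-D1. It was not counted, so the marked match need not be the Y box that belongs to the CRE core. The counts given for the Y box are counts of GATTGG only. Those for the interferon core are likewise counts of GAAANNGAA only. The letters tttcacttc, in lower case above for H2-K1 and H2-D1, hold the parts of this core in the other order and were not counted. They also lie in the windows of H2-Q4, H2-Q6, H2-Q7 and H2-M3. A gene outside the 5 counted therefore need not lack an interferon element. The windows of Tap1 and Psmb9, which are read in opposite directions, share 275 of 300 bases. A match describes letters only. B2m holds an interferon core, the CRE core and the Y box as well, and passed in no CI994 comparison in the main fit.

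Most class I pathway genes were higher in the M clones than in TGF-beta-treated Py2T cells. The non-classical heavy chains, the Tap transporter and tapasin (Tapbp) rose, whereas the classical heavy chain H2-D1 fell and H2-K1 did not pass the test. Of the 34 genes, 25 reached the minimum of 1 RPKM in 2 libraries and were tested, and 16 were higher and 2 lower in the mean of the clones (limma, Benjamini-Hochberg adjusted p below 0.05). Over all 11717 genes 65.0% were called, 32.4% higher and 32.6% lower. The median log2 difference was 0.46 over the 25 genes and -0.00 over all genes, on the log2(RPKM + 0.5) scale used for every log2 value of this set. In bulk RNA, a level that differs because fewer cells make a transcript and one that differs because each cell makes less cannot be told apart.

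**Figure D1:**
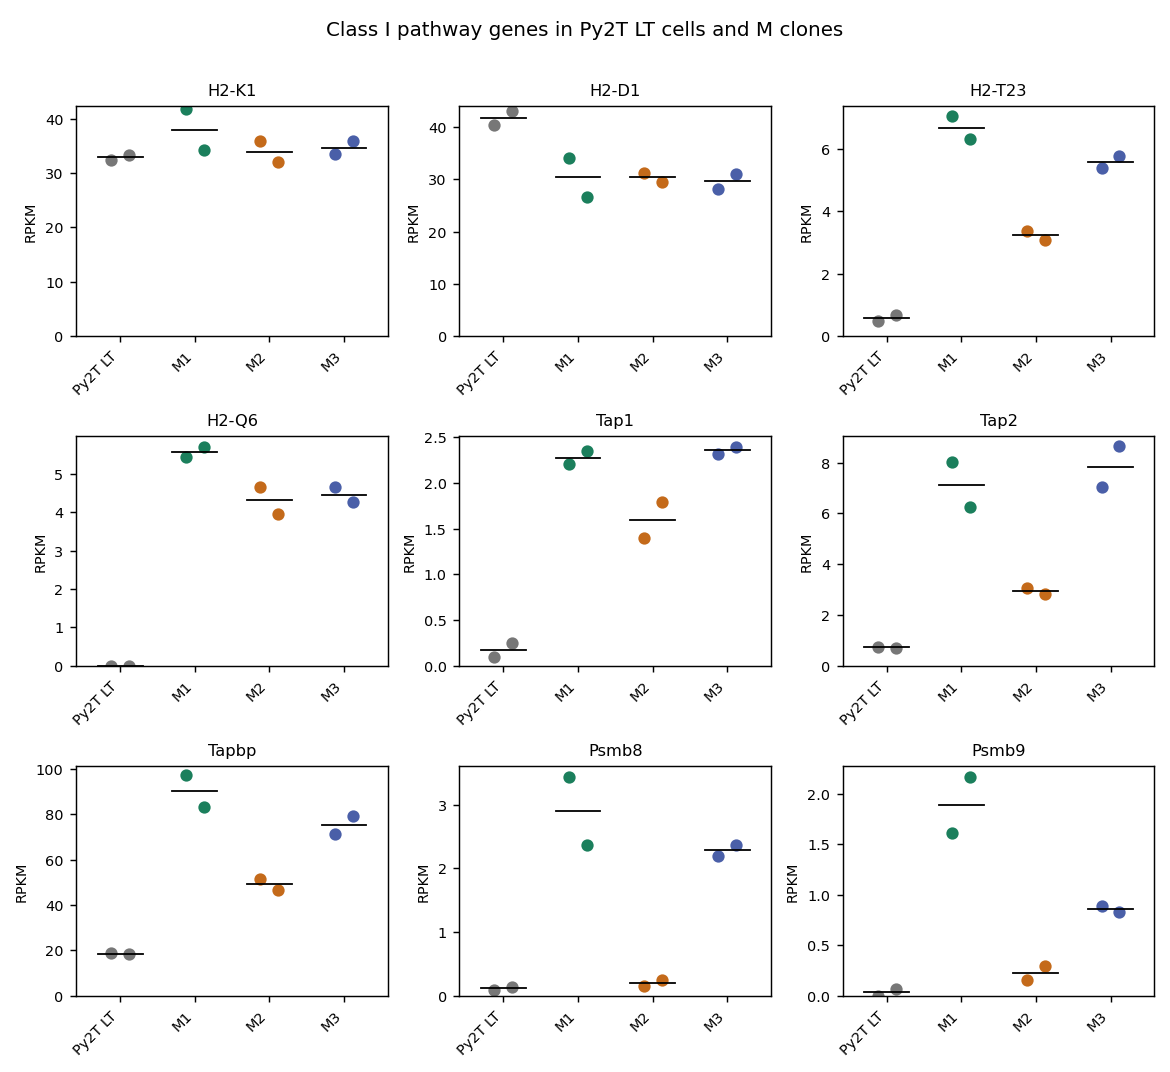
RPKM (vertical axis, linear from 0) of 9 class I pathway genes in Py2T LT cells and clones M1, M2 and M3; each point is 1 library and each line the mean of 2. H2-T23, H2-Q6, the Tap genes and Tapbp lie higher in every clone library than in Py2T LT, H2-D1 lies lower, and Psmb8 and Psmb9 are high in M1 and M3 but not in M2.

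The classical heavy chains, which present most peptides to T cells, did not share this rise. H2-K1 was 32.4 and 33.4 RPKM in Py2T LT and 32.1 to 41.8 in the 6 clone libraries, so the groups overlapped. H2-D1 was 40.5 and 43.2 RPKM in Py2T LT, 34.1 and 26.6 in M1, 31.3 and 29.4 in M2, and 28.1 and 31.1 in M3. Both Py2T LT libraries were above every clone library, and the log2 difference of the clones was -0.49 (SE 0.10; limma, adjusted p = 0.00256).

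All 5 tested non-classical heavy chains were higher in each of the 3 clones. H2-T23 (Qa-1), a ligand of NK cell receptors, was 0.486 and 0.679 RPKM in Py2T LT, 7.05 and 6.33 in M1, 3.37 and 3.08 in M2, and 5.38 and 5.78 in M3. H2-T22, a ligand of gamma-delta T cells, was 0.496 and 0.604 RPKM in Py2T LT and 4.41 to 6.30 in the clones. H2-M3, which presents formylated peptides, was 3.31 and 3.22 RPKM in Py2T LT and 9.53 to 16.1 in the clones. No clone library of these 3 genes reached down to the Py2T LT values, and the log2 differences were 2.33, 2.41 and 1.78 (SE 0.12, 0.12 and 0.10).
The Q genes differed among themselves. H2-Q6 was listed at 0 in both Py2T LT libraries and at 3.95 to 5.69 RPKM in the clones, while H2-Q4 went from 3.28 and 3.58 to between 8.15 and 11.4. H2-Q7 was listed at 0 in 7 of the 8 libraries and at 0.0362 RPKM in 1 of M3. These genes are near-copies: 32.0% of the 50-base words of the H2-Q6 transcript, 27.1% of H2-Q7, 22.03% of H2-Q4 and 35.8% of H2-T22 also occur in another gene, against 8.11% of H2-K1, 14.3% of H2-D1, 15.0% of H2-T23 and 0.576% of H2-M3. In the CPM libraries H2-Q6 and H2-Q8 had the same number of reads in all 12, the only such pair among 27 class I and class I-like chains compared, so their reads were not told apart there. The split of reads among the Q and T genes is therefore uncertain, and whether the cells' own H2 alleles match the C57BL/6J reference was not tested.

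B2m, the light chain of every class I molecule, was 269 and 275 RPKM in Py2T LT, 430 and 359 in M1, 324 and 326 in M2, and 387 and 401 in M3. All 6 clone libraries were above both Py2T LT libraries, by a log2 difference of 0.42 (SE 0.09; limma, adjusted p = 0.00247), a smaller step than that of the non-classical chains. It was the second most abundant of the 34 genes per length in M3, near Pdia3.

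The peptide-loading genes rose with the transporter in front. Tap1 was 0.0986 and 0.246 RPKM in Py2T LT and 1.40 to 2.39 in the clones. Tap2, the other subunit of the transporter, was 0.748 and 0.718 RPKM in Py2T LT, 8.03 and 6.24 in M1, 3.07 and 2.82 in M2, and 7.02 and 8.64 in M3. Tapbp, which bridges the transporter and the heavy chain, was 18.9 and 18.4 RPKM in Py2T LT, 97.4 and 83.1 in M1, 51.6 and 46.8 in M2, and 71.2 and 79.5 in M3. The groups did not overlap for these 3 genes, and M2 held the lowest clone values of each. Their log2 differences over the clones were 1.92, 2.27 and 1.85 (SE 0.13, 0.13 and 0.09).
The remaining loading genes moved less. Tapbpl (a tapasin relative that edits peptides), Erap1 (the trimming aminopeptidase), and the chaperones Canx and Pdia3 rose by log2 differences of 0.48, 0.46, 0.32 and 0.55. Erap1 rose in M1 and M3, at 24.5 to 30.2 RPKM against 16.8 and 16.9 in Py2T LT, while M2 held 17.6 and 18.7. Calr, the second lectin chaperone, was 465 and 495 RPKM in Py2T LT and fell only in M3, to 377 and 372. Erap1 overlaps Cast, and Pdia3 overlaps Catsper2, on the genome, and the use of strand in counting is not given in the sources used here.

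Among the proteasome genes, the inducible catalytic subunits separated M2 from the other clones. Psmb8 was 0.0951 and 0.137 RPKM in Py2T LT, 3.44 and 2.36 in M1, 0.154 and 0.248 in M2, and 2.20 and 2.36 in M3. Psmb9 was 0 and 0.0693 RPKM in Py2T LT, 1.61 and 2.17 in M1, 0.155 and 0.301 in M2, and 0.887 and 0.828 in M3. Both rose in M1 and M3 and passed in M2 in neither direction. Psmb10 was 14.5 to 18.0 RPKM in Py2T LT and 12.7 to 25.7 in the clones, and rose in M1 alone among the 3 clone tests. Of the activator subunits, Psme1 was 31.4 and 28.6 RPKM in Py2T LT, rose to 46.9 and 44.5 in M1 and fell to 25.9 and 24.7 in M2. Psme2 was 3.63 and 2.92 RPKM and fell in M2, to 1.99 and 1.67. Over 17 alternatives the Psmb10 call in M1 was lost in 7, and the Psme1 and Psme2 calls in M2 in 5 each. The Psme1 call in M1 was lost in 0.

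Of the regulators, none of the 3 that could be tested rose in the mean of the clones. Nlrc5 was at 0.155 RPKM or lower and Ciita at 0.0313 or lower in all 8 libraries, too low to be tested. The RFX subunit Rfx5 overlapped between groups, at 3.86 to 5.44 RPKM. Rfxap was 8.91 and 8.89 RPKM in Py2T LT and 9.08 to 13.5 in the clones, so every clone library was higher, but it did not pass the test (limma, adjusted p = 0.166). Rfxank fell, from 4.44 and 4.10 RPKM in Py2T LT to between 1.58 and 2.46 (log2 difference -0.94, SE 0.11).
The class II chains were close to silent. H2-Aa and H2-Eb1 were listed at 0 in all 8 libraries, H2-Ab1 at 0.390 and 0.234 RPKM in Py2T LT and at 0 in the clones, and the invariant chain Cd74 at 0.0950 or lower. H2-DMb1 was listed at 0.105 or lower. H2-DMa, a subunit of the peptide editor of class II, was 1.02 and 1.08 RPKM in Py2T LT and 2.34 and 2.01 in M2, where it rose, and 1.05 to 1.34 in M1 and M3. Over the mean of the clones it rose by 0.34 (SE 0.12), but did not pass when 1 Py2T LT library, either one, was left out, nor without M2 replicate 1 or M3 replicate 2 (limma, adjusted p up to 0.214 over the alternatives). It overlaps Brd2 on the genome.

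By clone, 16 genes were higher and 2 lower in M1, where 60.8% of all genes were called, 30.7% higher and 30.2% lower. In M2 12 were higher and 4 lower (57.4% of all genes called; 28.2% and 29.2%), and in M3 15 and 3 (59.4%; 29.9% and 29.5%). These comparisons share the Py2T LT libraries. The clones differed among themselves in 11 of the 25 genes (limma F test over M1, M2 and M3; 25.6% of all genes), and this count was 6 without M2 replicate 1 and 5 without M2 replicate 2. The immune markers summed to 3.05 and 3.62 RPKM in Py2T LT and 1.35 to 3.28 in the clones, so the groups overlapped. The mesenchymal list summed to 3029 and 3133 RPKM in Py2T LT and 1355 to 1810 in the clones, with 4 of 10 genes higher and 6 lower, and the part of this in the results was not tested.

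In M3 cells CI994 raised the class I heavy chains, Nlrc5 and the transporter whichever shRNA was present. Of the 34 genes, 29 reached the minimum of 0.5 CPM in 2 libraries and were tested. In shControl cells CI994 raised 13 and lowered 2 (limma, adjusted p below 0.05), when 33.6% of all 12808 genes were called, 17.9% higher and 15.7% lower. In shTet2 cells it raised 14 and lowered 1 (24.3%; 12.6% higher, 11.7% lower). In shMbd3 cells it raised 14 and lowered 1 (12.7%; 7.58% higher, 5.11% lower). The medians over the 29 genes were 0.76, 0.70 and 0.68, and those over all genes 0.03, 0.01 and 0.00, on the log2(CPM + 0.5) scale used for every log2 value of this set. These 3 comparisons have separate controls. Higher in all 3 were 11 genes (H2-K1, H2-D1, H2-T23, H2-T22, H2-Q4, H2-Q6, H2-Q7, Tap1, Tap2, Nlrc5 and H2-DMa) and lower in all 3 was 1 (Erap1), against 4.72% and 2.83% of all genes. H2-DMa was not among them without the library labelled M3_shControl replicate 1, which left 10. H2-Q6 and Tap2 were not without a filter, with a pseudocount of 0.1 or without scaling beyond the deposited values, nor were Tap1 and H2-DMa with the GC trend removed. B2m was higher in all 3 with the GC trend removed, with or without the replicate block. H2-K1, H2-D1 and Nlrc5 remained in all 12 fits that left out 1 library. The count was then 6 without either treated shControl library, 3 and 5 without the untreated and 4 without either treated shMbd3 library, and 7 without shTet2 replicate 1 or either treated shTet2 library. In fits of the compared groups alone it was 0, as none of the 34 passed in shControl cells.

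**Figure D2:**
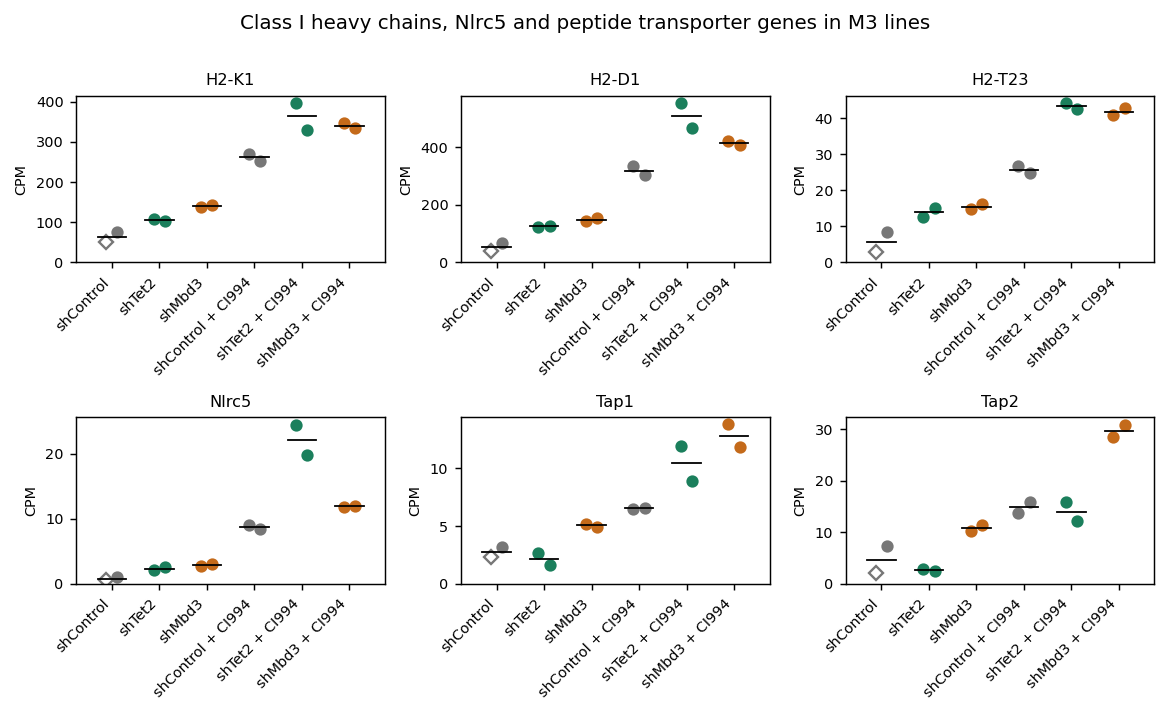
CPM (vertical axis, linear from 0) of 3 class I heavy chains, Nlrc5 and the 2 transporter genes in the 6 groups of M3 libraries; each point is 1 library, each line the mean of 2, and the open diamond is the library labelled M3_shControl replicate 1. For all 6 genes both CI994 libraries of a line lie above its 2 untreated libraries.

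Nlrc5, the class I transactivator, was 0.641 and 1.01 CPM in untreated shControl cells (14 and 21 reads), 2.08 and 2.64 in shTet2 cells, and 2.80 and 3.12 in shMbd3 cells. With CI994 it was 9.09 and 8.50 CPM in shControl cells, 24.4 and 19.9 in shTet2, and 11.9 and 12 in shMbd3 cells. All CI994 libraries were above all untreated ones, and the highest pair was shTet2 with CI994. The log2 increase with CI994 was 2.81, 2.93 and 1.84 (SE 0.18 each; limma, adjusted p = 5.82e-05, 5.27e-05 and 0.000568).

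The classical heavy chains followed the same order of groups without treatment. H2-K1 was 51.4 and 75.6 CPM in shControl cells, 107 and 103 in shTet2, and 139 and 143 in shMbd3 cells, and rose with CI994 to 270 and 252, 397 and 330, and 346 and 333. H2-D1 was 39.9 and 68.0 CPM in shControl cells, 123 and 127 in shTet2, and 142 and 153 in shMbd3 cells, and rose with CI994 to 333 and 303, 551 and 464, and 421 and 408. Every CI994 library exceeded every untreated one for both genes. The increase with CI994 was 4.06-fold, 3.27-fold and 2.39-fold for H2-K1 and 5.91-fold, 3.85-fold and 2.79-fold for H2-D1 in shControl, shTet2 and shMbd3 cells, as fitted on the log2(CPM + 0.5) scale.

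Of the 6 tested non-classical chains, 5 rose with CI994 in all 3 lines. H2-T23 was 2.97 and 8.53, 12.7 and 15.1, and 14.8 and 16.1 CPM untreated, and 26.7 and 24.9, 44.1 and 42.6, and 40.8 and 42.8 with CI994. H2-Q4 was 8.42 and 14.4, 9.07 and 7.57, and 19.2 and 23.1 CPM untreated, and 30.9 and 30.7, 43.1 and 40.9, and 43.1 and 52.0 with CI994. For both, all 6 treated libraries were above all 6 untreated ones. H2-T22, H2-Q6 and H2-Q7 rose by log2 differences of 0.80 to 2.54 over the 3 lines. H2-M3 passed in none of the 3 comparisons, with 14.9 to 41.8 CPM untreated and 13.2 to 28.1 with CI994. H2-T24 had 6 reads over all 12 libraries.

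In the main fit B2m did not pass with its heavy chains. It was 562 and 437 CPM in shControl cells, 438 and 403 in shTet2 and 380 and 380 in shMbd3 cells, and 529 and 494, 668 and 544, and 571 and 534 with CI994. The treated and untreated shControl libraries overlapped, those of the other lines did not, and it passed the limma test in none of the 3 comparisons (Benjamini-Hochberg adjusted p = 0.954, 0.0691 and 0.0609). Without the library labelled M3_shControl replicate 1, it has 1 untreated shControl value, 437. With the GC trend removed, with or without the replicate block, B2m passed as higher in all 3 lines.

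The transporter rose while the trimming enzyme fell. Tap1 was 2.33 and 3.21, 2.64 and 1.59, and 5.18 and 4.95 CPM untreated, and 6.49 and 6.59, 11.9 and 8.94, and 13.8 and 11.8 with CI994. Tap2 was 2.11 and 7.28, 2.93 and 2.49, and 10.2 and 11.5 CPM untreated, and 13.8 and 15.9, 15.9 and 12.1, and 28.4 and 30.8 with CI994. In each line both treated libraries were above both untreated ones, and shMbd3 cells with CI994 held the highest pair for Tap2. Erap1 was 159 and 105, 59.6 and 57.7, and 95.7 and 99.5 CPM untreated, and 44.1 and 42.7, 28.4 and 26.1, and 50.4 and 49.7 with CI994, so it was lower in every treated library than in every untreated one. Its log2 change was -1.60, -1.16 and -0.96 (SE 0.19 each).
Tapbp, at 83.0 and 110 CPM in shControl cells, rose with CI994 in shTet2 cells from 50.7 and 64.3 to 118 and 112, and in shMbd3 cells from 107 and 122 to 182 and 188. In shControl cells it was 117 and 123 CPM with CI994 and did not pass. Tapbpl, Calr, Canx and Pdia3 passed in none of the 3 comparisons, at 4.29 to 10.7, 977 to 1483, 1072 to 1743 and 1232 to 2613 CPM over the 12 libraries.

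**Figure D3:**
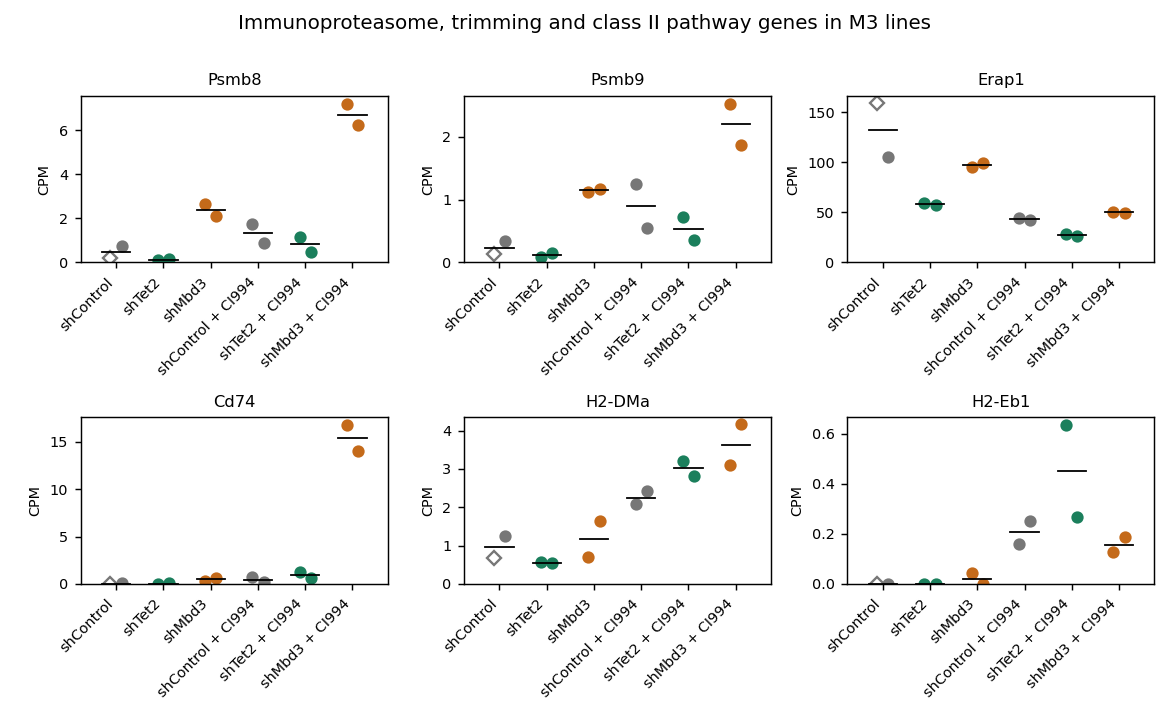
CPM (vertical axis, linear from 0) of immunoproteasome, trimming and class II pathway genes in the 6 groups of M3 libraries; points, lines and the open diamond are as in the plot of class I genes. Psmb8, Psmb9 and Cd74 are highest in shMbd3 cells with CI994, Erap1 is lowest in shTet2 cells with CI994, and H2-Eb1 stays below 1 CPM.

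Of the 5 genes of the immunoproteasome and its activator, Psmb8 and Psmb9 were higher in shMbd3 than in shControl cells. Psmb8 was 0.183 and 0.767 CPM in shControl cells, 0.0945 and 0.149 in shTet2 and 2.67 and 2.10 in shMbd3 cells, and 1.76 and 0.905, 1.14 and 0.492, and 7.19 and 6.22 with CI994. Psmb9 was 0.137 and 0.335, 0.0945 and 0.149, and 1.13 and 1.16 CPM untreated, and 1.24 and 0.553, 0.718 and 0.358, and 2.52 and 1.86 with CI994. For both genes each shMbd3 library was above each library of the other lines at the same treatment. The shMbd3 cells exceeded shControl by log2 differences of 1.60 and 1.14 untreated and 1.98 and 0.95 with CI994 (SE 0.35 and 0.27; limma, adjusted p = 0.00926, 0.0143, 0.00396 and 0.0400). The rise with CI994 passed for Psmb8 in shMbd3 cells and for Psmb9 in shControl cells, and the differences between lines in that rise did not pass. Psmb10, Psme1 and Psme2 lay between 2.56 and 15.5, 32.5 and 50.7, and 16.3 and 37.5 CPM. Of these, only Psme2 passed in a CI994 comparison, from 34.1 and 32.1 to 26.4 and 22.5 CPM in shControl cells.

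The invariant chain Cd74, which guides class II molecules to endosomes, gave the largest change among the 34 genes in M3 cells. Without treatment the shControl and the shTet2 pair each had 0 and 1 reads, and shMbd3 cells had 8 and 15. With CI994 it was 0.681 and 0.151 CPM in shControl cells, 1.27 and 0.581 in shTet2, and 16.7 and 14.0 in shMbd3 cells (398 and 226 reads). The pair of shMbd3 libraries with CI994 stood above all 10 others. The myeloid marker Csf1r was highest in the same pair, at 0.883 and 1.93 CPM against 0.0447 to 0.446 in the other libraries, and its part in the Cd74 result was not tested. The log2 difference with CI994 was 3.98 in shMbd3 cells (SE 0.32; limma, adjusted p = 0.000308), and within CI994 the shMbd3 cells exceeded shControl by 4.14 (adjusted p = 4.22e-05) and shTet2 cells by 3.49. These log2 values depend on the pseudocount, since most other libraries are near 0. The difference between the CI994 responses of shMbd3 and shControl cells was 3.24 (SE 0.45) with an adjusted p of 0.0586.
Its partners did not appear with it. Ciita had 0 to 4 reads, H2-Aa 0 to 2 and H2-Ab1 0 or 1 in any library. H2-Eb1 had at most 1 read in the untreated libraries and 3 to 15 with CI994 (0.126 to 0.634 CPM). H2-DMa rose with CI994 in all 3 lines, from 0.548 to 1.65 CPM untreated to 2.08 to 4.17, and H2-DMb1 rose in shControl and shTet2 cells, with 0 to 5 reads in the 6 untreated libraries and 4 to 18 in the treated ones.
Rfx5, Rfxap and Rfxank passed in none of the 3 comparisons, at 15.9 to 22, 15.5 to 21.1 and 2.70 to 12.7 CPM.

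The knockdowns were compared with shControl without CI994. With shTet2, 6 of 29 genes were higher and 3 lower than in shControl (23.4% of all genes called; 10.5% higher, 12.9% lower), with a median of -0.21 against 0.02 over all genes. H2-K1, H2-D1, H2-T23, H2-Q7, Calr and Nlrc5 rose, by log2 differences of 0.78, 1.28, 1.39, 1.22, 0.35 and 1.15, and Tapbp, Erap1 and Psme2 fell, by 0.71, 1.11 and 0.66 on the log2 scale. With shMbd3, 12 of 29 were higher and 0 lower (32.2%; 15.3% higher, 16.9% lower), with a median of 0.72 against 0.00. These were H2-K1, H2-D1, H2-T23, H2-Q4, H2-Q6, H2-Q7, H2-M3, Tap1, Tap2, Psmb8, Psmb9 and Nlrc5, by 0.72 to 1.70. edgeR on the recovered reads called 9 and 12 genes. Tap2 was not among the 12 with shMbd3, so these are not the same set as by limma. Both comparisons share the shControl libraries. Over 22 alternatives, Calr and H2-Q7 lost their shTet2 call in 11 and 7. Tap1 and Tap2 lost their shMbd3 call in 11 and 10, and each other call named here was lost in 1 to 4.

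Without the library labelled M3_shControl replicate 1, all 9 shTet2 calls remained and 7 were added, giving 7 higher and 9 lower (32.9% of all genes). The added genes were H2-T22, H2-Q4, Tap2, Tapbpl, Psmb8 and Psmb10, lower, and Pdia3, higher. Tap2 then differed by -1.21 (SE 0.18; limma, adjusted p = 0.000581), against -0.46 with an adjusted p of 0.395 with the library, and H2-Q4 by -0.68 against -0.36. Of the 12 shMbd3 calls 10 remained, H2-M3 and Tap1 being lost (limma, adjusted p = 0.0706 and 0.0961), and the differences of H2-K1 and H2-D1 were 0.89 and 1.11 in place of 1.11 and 1.43. Of the 15 CI994 calls in shControl cells 11 remained. Psmb9, Psme2, H2-DMa and H2-DMb1 were lost, Tapbpl and Psmb10 were added as lower, and the increases of H2-K1, H2-D1 and Nlrc5 were 1.81, 2.24 and 2.64. The median of the 29 genes with shMbd3 was 0.26 without this library, and that of CI994 in shControl cells 0.51. Other single libraries also moved the counts: with shTet2 the count was 16 without M3_shControl replicate 2 and 5 without either shTet2 library, with shMbd3 it was 22 without M3_shControl replicate 2 and 4 and 5 without shMbd3 replicates 1 and 2. For CI994 in shControl cells it was 8 and 9 without the CI994 replicates 1 and 2, for CI994 in shTet2 cells 23 without either untreated shControl library and 10 without M3_shTet2_CI994 replicate 1, and for CI994 in shMbd3 cells 4, 6, 5 and 5 without the untreated and treated shMbd3 libraries in turn.

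**Figure D4:**
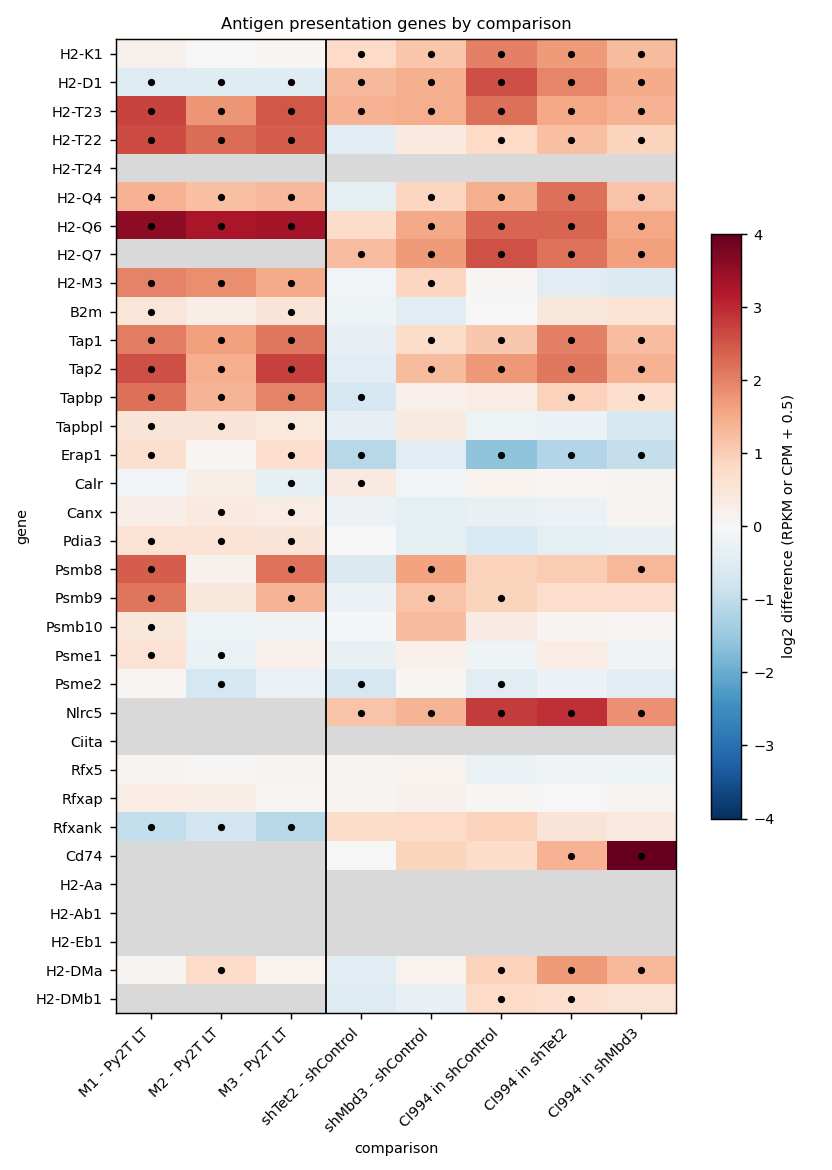
Log2 differences (colour, on log2(RPKM + 0.5) for the 3 columns left of the line and log2(CPM + 0.5) for the 5 on the right) of the 34 genes; a dot marks an adjusted p below 0.05 by limma and grey marks genes too low to be tested. H2-K1 and H2-D1 are called higher in all 5 M3 columns and in none of the clone columns, and Erap1 is higher in M1 and M3 and lower with CI994.

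The knockdowns were also compared with each other. Untreated shTet2 cells were lower than shMbd3 cells in 11 of 29 genes and higher in 1 (19.2% of all genes; 9.60% lower, 9.55% higher), with a median of -0.55 against -0.00. Of all calls in this comparison 49.9% were higher, and 39.2% when the deposited CPM were used without further scaling. Lower in shTet2 were H2-T22, H2-Q4, H2-M3, Tap1, Tap2, Tapbp, Erap1, Psmb8, Psmb9, Psme1 and Psme2, by 0.49 to 2.17 on the log2 scale, and Calr was higher. H2-K1, H2-D1, H2-T23 and Nlrc5, which both knockdowns raised over shControl, did not pass here. The count was 19 without either untreated shControl library, 5 without either shTet2 library and 3 without either shMbd3 library. With CI994, 7 genes were lower and 2 higher in shTet2 than in shMbd3 cells (21.9%; 10.8% lower, 11.1% higher): H2-M3, Tapbp, Erap1, Psmb8, Psmb9, Psme2 and Cd74 were lower, and Nlrc5 and Calr higher. This count was 15 without either untreated shControl library, 4 and 3 without the treated shTet2 replicates 1 and 2, and 2 and 3 without the treated shMbd3 replicates.

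Within CI994-treated cells the shares of tested genes called different from shControl in either direction were near or below those of all genes. The shTet2 cells were higher in H2-D1 and Nlrc5 and lower in Erap1, by 0.66, 1.27 and -0.67 (16.0% of all genes called; 6.69% higher, 9.28% lower). The shMbd3 cells were higher in Tap1, Tapbp, Psmb8, Psmb9 and Cd74 (19.1%; 8.11% higher). The first count was 13 without either untreated shControl library and 1 without any other single library. The second was 14 without either untreated shControl library, 3 and 2 without the treated shControl replicates 1 and 2, and 2 without either treated shMbd3 library. In fits of the compared groups alone, which leave the untreated shControl pair out of the estimate of spread, the counts were 13 and 14. The shares of all genes given above belong to the main fit, so they do not serve to read these other counts.
Whether the response to CI994 differed between lines was tested as an interaction, and 0 of 29 genes passed for shTet2 or shMbd3 against shControl by limma (0.687% and 0.0781% of all genes; 0.414% higher and 0.273% lower, and 0.0390% higher and 0.0390% lower), with 5 and 6 at an unadjusted p below 0.05, and 0 by edgeR. Without the library labelled M3_shControl replicate 1, H2-Q4, Tap2 and Tapbp passed as more strongly raised in shTet2 cells, by 1.11, 1.11 and 0.78 (limma, adjusted p = 0.0132, 0.0248 and 0.0215). H2-D1 passed as less strongly raised in shMbd3 cells (-0.76; limma, adjusted p = 0.0350) and Cd74 as more strongly raised (3.30; limma, adjusted p = 0.0177). Over all genes 6.36% and 0.713% passed without this library. Without M3_shControl replicate 2, the library that stood apart is the only untreated shControl library. The share of all genes is not given for that fit, so its calls are not read as a result about these genes.

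The rest of the pathway was read from lists of related genes. For these lists the shares of all genes are those given above: 17.9%, 12.6% and 7.58% higher and 15.7%, 11.7% and 5.11% lower with CI994 in shControl, shTet2 and shMbd3 cells. Of 13 tested further class I and class I-like chains, CI994 raised 8, 11 and 9 in shControl, shTet2 and shMbd3 cells and lowered 1, 0 and 0. Without the library labelled M3_shControl replicate 1 it raised 9 and lowered 1 in shControl cells. H2-Q5, a near-copy of the Q genes above, was 0 and 1.44 CPM in untreated shControl and 5.56 and 8.20 with CI994, and Fcgrt, the neonatal Fc receptor, was 1.56 and 4.31 and then 8.33 and 10.3. Their log2 increases were 2.89 and 1.61, and 1.93 and 1.04 without that library. In the clones 7 of 11 such chains were higher than in Py2T LT and 2 lower, against 32.4% and 32.6% of all genes. Of the 13 other processing genes, which include the constitutive proteasome subunits, 3, 1 and 0 were higher with CI994 and 0 lower. At an unadjusted p below 0.05 by limma the counts were 6, 3 and 1. Without that library 3 were higher and 0 lower in shControl cells.
Of 20 genes of interferon and NF-kB signalling, 2 were higher and 1 lower with CI994 in shControl cells, 1 and 0 in shTet2 cells, and 0 and 0 in shMbd3 cells, where 4 had an unadjusted p below 0.05 by limma. Without that library 3 were higher and 1 lower in shControl cells. Irf1, a direct activator of class I promoters, was 49.7 and 67.8 CPM in shControl cells and 93.8 and 92.8 in shMbd3 cells and rose by 0.62, and by 0.46 without that library, when it no longer passed (limma, adjusted p = 0.0546). Of 13 tested interferon-stimulated genes, 4, 7 and 5 rose with CI994 and 1, 0 and 0 fell, with 4 and 1 in shControl cells without that library. Bst2 (tetherin) was 7.55 and 12.3, 7.60 and 6.77, and 24.7 and 24.8 CPM untreated and 29.1 and 27.2, 40.9 and 35.7, and 57.2 and 57.0 with CI994. Of the 5 partners of Nlrc5 and Ciita at the promoter, 0 rose and 2, 2 and 1 fell, with 0 and 2 in shControl cells without that library.

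The immune marker list moved with CI994. It summed to 1.92 to 3.97 CPM over its 15 genes in the untreated libraries and to 10.6 to 20.9 with CI994, and of the 3 genes tested 2, 2 and 3 rose in the 3 lines. The largest parts of the sum with CI994 were Cd68, a lysosomal protein (0.918 to 3.12 CPM untreated, 6.69 to 16.6 treated), and Lyz2 (0.0958 to 0.357 and 2.41 to 4.75). Csf1r passed in shMbd3 cells and not in the other lines, and the difference of its response between shMbd3 and shControl cells, 1.51, did not pass (limma, adjusted p = 0.166). Adgre1 and Tyrobp stayed at 0, Itgam at 0.125 CPM or lower and Cd3e at 0.0423 or lower. The epithelial list, summing to 995 and 2515 CPM in shControl cells, was 2714 to 4138 in the knockdown lines and 3408 to 4682 with CI994. The mesenchymal list summed to 4848 and 6550 CPM in shControl cells and 3437 to 3953 in the knockdown lines, and with CI994 to 8422 to 9626 in shControl and shTet2 cells and 5216 and 5642 in shMbd3 cells. Cdh1 was 16.3 and 25.7 CPM in shControl cells, 202 and 207 in shTet2 and 170 and 202 in shMbd3 cells. The part of these changes in the class I results was not tested.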

How the data were processed

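RNA was sequenced from 20 libraries in 10 groups of 2 (total RNA, stranded library kit, per the labels' protocols). The submitters' processing notes name STAR and the mm10 build; the counting method and its use of strand are not given in the sources used here. The RPKM values of the 8 Py2T LT and clone libraries and the CPM values of the 12 M3 libraries are those the authors deposited. One RPKM file also held 7 columns that copy other libraries (0 values differed). All CPM values (100.0%) were whole reads within 0.01 reads once rescaled, and those reads were used for an edgeR quasi-likelihood alternative.

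Genes at 1 RPKM or 0.5 CPM in at least 2 libraries were tested with limma on TMM-scaled log2(value + 0.5), with all groups of a unit in one fit, and p-values were Benjamini-Hochberg adjusted over all genes tested (threshold 0.05). Each set was normalized separately, and no level was compared across sets. Any of the 34 genes and of the interferon and NF-kB list could be named; of each other list, up to 4 of the largest rises and 4 of the largest falls that passed, and marker genes as a check of identity. The members and lists were chosen with earlier results of these data known, and so were the motifs. GC content and shared 50-base words were computed from GENCODE transcripts. Limits for 0 reads count 3 reads and cover counting error only. P-values rest on the spread between the 2 experiments, pooled over all groups of a set and moderated over genes. The untreated shControl pair therefore enters every test of the M3 set. The SD of its log2 replicate difference was 0.704, against 0.201 to 0.238 in the other CPM groups. The fits were checked on simulated data with the same spread in every library, no GC trend and no shared replicate effect. That check does not cover a library such as the one labelled M3_shControl replicate 1. Tools were R 4.3.3, limma 3.58.1, edgeR 4.0.16, Python 3.11.15, pandas 2.3.3 and matplotlib 3.10.9. Alternatives tried were other scaling, pseudocounts (0.1 and 1), no filter, a replicate block, removal of the GC trend, fits of the compared groups alone, edgeR, and leaving out each library. The result of 1 gene of the interferon and NF-kB list is not reported here.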

Additional observations from a re-analysis of the deposited data

Results flagged for a closer look

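For 11 genes, the difference from Py2T LT was not the same in clones M1, M2 and M3 by the limma F test among the clones (2 libraries each, Benjamini-Hochberg adjusted over all genes). The adjusted p was 8.96e-05 for Psmb8 and 0.000709 for Psmb9, both of which were low in M2 and higher in M1 and M3. It was 0.00116 for Psme1, highest in M1 and lowest in M2. Among the loading genes it was 0.00126 for Tap2 and 0.00207 for Tapbp, both lowest in M2, 0.0193 for Erap1, also lowest in M2, and 0.0112 for Calr, lowest in M3. For the heavy chains it was 0.00465 for H2-T23, lowest in M2, and 0.0421 for H2-M3, lowest in M3. It was 0.0310 for Psmb10, highest in M1, and 0.0151 for H2-DMa, highest in M2.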

How the results depend on the processing

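Over 172 single-gene results and 3408 alternative values, 3006 kept direction and side of the threshold, 378 lost and 22 gained a call, and 2 reversed. Both reversals were Tap2 when M3_shControl replicate 2 was left out: leaving out 1 library at a time, its shTet2 difference ranged from -1.21 to 0.27 and its shTet2 interaction from -0.37 to 1.11. A group left with 1 library is assumed to vary like the others. The cause of the following shifts was not tested. Same-numbered libraries deviated together in CPM (correlation over 0.1 in 14 of 15 pairs of groups, 0.0958 to 0.524) and not in RPKM (1 of 6, -0.122 to 0.128). As 1 CPM pair fell below 0.1 and the labels do not say what a number marks, the replicate was not used as a block; with the replicate block the count of called genes went from 3 to 6 for shTet2 within CI994 and from 0 to 1 for the shMbd3 interaction, and by under 1.5 times elsewhere. With the GC trend removed the counts were 16 for shTet2 (9 before), 9 for shTet2 and 10 for shMbd3 within CI994 (3 and 5 before), and 1 for each interaction. With the GC trend removed and the replicate block they were 17, 12 and 15, then 15 for shTet2 against shMbd3 within CI994 (9 before), and 3 for each interaction. Fits of the compared groups alone gave 0 for shTet2, shMbd3 and CI994 in shControl cells, 13 and 14 for shTet2 and shMbd3 within CI994, 19 for shTet2 against shMbd3 and 15 for the same within CI994. The shMbd3 interaction gave 1 without a filter and 1 with a pseudocount of 1.

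Leaving out 1 library at a time, counts ranged from 5 to 12 among the clones, 5 to 16 for shTet2, 4 to 22 for shMbd3, 8 to 21, 10 to 23 and 4 to 20 for CI994 in shControl, shTet2 and shMbd3 cells, 1 to 13 and 2 to 14 for shTet2 and shMbd3 within CI994, 3 to 19 and 2 to 15 for shTet2 against shMbd3 without and with CI994, and 0 to 14 and 0 to 17 for the interactions. Differences between the clones and Py2T LT kept their counts within 1.5 times under each alternative run. Shares of all genes are not given for the counts under the alternatives, save some without the library labelled M3_shControl replicate 1. The counts therefore describe how the calls depend on the processing and on single libraries. With 2 libraries per group, low genes such as Psmb9, H2-DMb1 and Cd74 rest on few reads in most libraries.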

Other observations

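Of 8 tested costimulatory, checkpoint and NK ligand genes, 3 were higher and 1 lower with CI994 in shControl cells, 2 and 0 in shTet2 cells, and 2 and 0 in shMbd3 cells, against 33.6%, 24.3% and 12.7% of all genes called, and the count in shControl cells was the same without the library labelled M3_shControl replicate 1. Nectin2, a ligand of the receptors TIGIT and CD226, rose with CI994 by log2 differences of 1.82, 1.65 and 1.39 (SE 0.20 each) in shControl, shTet2 and shMbd3 cells, and by 1.44 in shControl cells without that library. Before treatment it was 1.26 higher with shTet2 and 2.28 higher with shMbd3 than in shControl, and 0.89 and 1.91 without that library. In the clones 1 of 7 such genes was higher and 3 lower, against 65.0% of all genes called. Pvr, which binds the same receptors, was lower there by 1.68 on the log2 scale (SE 0.08). It was higher with shTet2 (0.76) and lower with CI994 in shControl cells (-0.43), with 0.81 and -0.37 without that library. It was also higher with shMbd3 by 1.45, a call that remained without that library. Lgmn, an endosomal protease of the class II route, was higher in the clones (1.66) and with CI994 in each M3 line (1.56, 1.28 and 1.05, and 1.34 in shControl cells without that library).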
